A study of Mus musculus with 36 samples.

Results

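The genes described here are 46 genes of the cell division cycle, read in the left ventricle of mice after myocardial infarction (MI). They were taken by symbol from a table of 16415 genes and every member was found in it. The list has 2 parts: 10 genes of S phase (Mcm2 to Mcm7, Pcna, Rrm2, Tk1 and Tyms) and 36 genes listed under mitosis, of which 5 (Ccnd1, Ccne1, Ccne2, E2f1 and Foxm1) act mainly in G1, at the G1/S boundary or as transcription factors of the cycle. In 8-week-old male C57BL/6 mice, MI was produced by tying off the left anterior descending (LAD) coronary artery, and sham-operated mice had the same surgery without tying off the artery. Ventricles were taken after 1 day, 1 week or 8 weeks, so that the 6 groups were MI 1 day, sham 1 day, MI 1 week, sham 1 week, MI 8 weeks and sham 8 weeks, with 3 mRNA libraries each and no genetic change in any of them. The labels describe each library as RNA from pooled left ventricle and do not give the number of animals in a pool, so p-values measure the spread between these libraries.

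Cell division is driven by cyclins, which switch on cyclin-dependent kinases (CDKs) in turn. Cyclin D and cyclin E activity releases E2F transcription factors, which switch on the genes of DNA synthesis, and a later set of genes, held off by the DREAM complex in resting cells and switched on by MuvB, B-MYB and FOXM1, makes the cyclins, kinases and motor proteins of mitosis. Adult cardiomyocytes divide rarely, whereas fibroblasts, macrophages and endothelial cells of the heart can divide after injury, and whole ventricle RNA does not separate these cells. With bulk tissue, fewer cells of a type and less RNA per cell cannot be told apart.

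Promoter sequence was available from RefSeq (build GRCm38.p6) for 38 of the 46 genes, as 41 windows of 300 bases from 250 bases before to 50 bases after a start site. A motif known in mitotic promoters, the cell cycle genes homology region (CHR), was sought as TTTGAA on both strands. The CCAAT box was sought as its name spells it. An E2F core was sought as GCGGGAA. The CHR occurred in 22 of 31 windows of mitosis genes (71.0%), from 20 genes, and in 1 of 10 windows of S phase genes (10%), against 17.9% of all 32851 windows. The CCAAT box occurred in 24 mitosis windows (77.4%) and 8 S phase windows (80.0%), against 37.4% of all windows. The E2F core occurred in 1 mitosis window (3.23%) and 3 S phase windows (30.0%), the latter from 2 genes, against 4.60% of all windows. The CHR and the CCAAT box were found together in 21 of the 31 mitosis windows (67.7%), against 6.95% of all windows, and 2 pairs of matches overlapped each other among the members. A match is a description of the letters in the window and not a measured binding site.

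The 6 windows below are examples from both parts of the list, with matches to the 3 motifs in capitals (a CCAAT box on the other strand appears as ATTGG). Each reads 5′ to 3′ in the direction of the gene. The first 250 bases lie before the start site. The first 3 (cyclin B2, the anaphase activator Cdc20 and the mitotic kinase Plk1) hold both a CHR and a CCAAT box. Ccnb1 holds CCAAT boxes but no TTTGAA, and other forms of the CHR were not sought. Mcm3 and Pcna are S phase genes.
Ccnb2: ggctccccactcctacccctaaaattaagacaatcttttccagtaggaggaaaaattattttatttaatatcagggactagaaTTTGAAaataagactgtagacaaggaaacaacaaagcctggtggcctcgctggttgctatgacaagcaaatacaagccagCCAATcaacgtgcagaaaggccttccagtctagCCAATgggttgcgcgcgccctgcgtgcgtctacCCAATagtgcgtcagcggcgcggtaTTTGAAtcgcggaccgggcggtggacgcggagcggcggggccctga
Cdc20: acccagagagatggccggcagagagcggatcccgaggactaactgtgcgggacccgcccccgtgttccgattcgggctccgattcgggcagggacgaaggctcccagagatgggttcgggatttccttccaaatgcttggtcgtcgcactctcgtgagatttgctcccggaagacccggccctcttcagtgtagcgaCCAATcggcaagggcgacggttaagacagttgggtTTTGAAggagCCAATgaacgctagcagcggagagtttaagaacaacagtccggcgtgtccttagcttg
Plk1: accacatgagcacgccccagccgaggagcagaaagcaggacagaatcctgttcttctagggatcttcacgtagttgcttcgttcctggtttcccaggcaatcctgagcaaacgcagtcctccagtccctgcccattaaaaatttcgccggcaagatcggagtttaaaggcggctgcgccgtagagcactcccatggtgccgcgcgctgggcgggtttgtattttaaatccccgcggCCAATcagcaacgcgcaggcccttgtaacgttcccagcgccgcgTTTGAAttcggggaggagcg
Ccnb1: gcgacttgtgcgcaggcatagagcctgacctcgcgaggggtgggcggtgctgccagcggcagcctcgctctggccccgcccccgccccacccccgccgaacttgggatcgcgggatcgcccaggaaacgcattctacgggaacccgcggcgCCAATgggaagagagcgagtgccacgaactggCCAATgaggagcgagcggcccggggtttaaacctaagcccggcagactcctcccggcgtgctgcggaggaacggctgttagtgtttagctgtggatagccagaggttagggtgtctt
Mcm3: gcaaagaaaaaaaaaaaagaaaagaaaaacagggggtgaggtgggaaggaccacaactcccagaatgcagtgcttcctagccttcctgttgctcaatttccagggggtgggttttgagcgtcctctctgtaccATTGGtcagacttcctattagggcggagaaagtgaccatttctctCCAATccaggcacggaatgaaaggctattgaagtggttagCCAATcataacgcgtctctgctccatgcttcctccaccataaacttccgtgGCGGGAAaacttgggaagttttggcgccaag
Pcna: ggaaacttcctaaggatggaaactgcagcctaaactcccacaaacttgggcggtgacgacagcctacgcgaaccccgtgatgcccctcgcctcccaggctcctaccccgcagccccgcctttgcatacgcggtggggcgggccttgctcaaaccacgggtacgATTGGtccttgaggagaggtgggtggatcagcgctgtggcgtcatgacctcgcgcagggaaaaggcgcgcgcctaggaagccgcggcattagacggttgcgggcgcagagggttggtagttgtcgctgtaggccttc
The windows lie at chr9:70421505-70421804 on the minus strand (Ccnb2), chr4:118437294-118437593 on the minus strand (Cdc20), chr7:122159185-122159484 on the plus strand (Plk1), chr13:100786437-100786736 on the minus strand (Ccnb1), chr1:20820263-20820562 on the minus strand (Mcm3) and chr2:132253131-132253430 on the minus strand (Pcna). The Mcm3 window holds the E2F core downstream of its start site, and the Pcna window holds a single match, to the CCAAT box.

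Values are the authors' FPKM (fragments mapped to a gene, scaled by the length of its transcripts and by the fragments of the library). The 18 libraries held an inferred 28940000 to 39810000 fragments. The defining markers of ventricular muscle were present throughout: 16 markers of ventricular cardiomyocytes summed to 16800 to 20700 FPKM in MI 1 day libraries and 47100 to 50500 FPKM in sham 1 day libraries, to 3290 to 10600 FPKM in MI 1 week libraries and 50500 to 56600 FPKM in sham 1 week libraries, and to 18700 to 45200 FPKM in MI 8 weeks libraries and 52400 to 54400 FPKM in sham 8 weeks libraries. The 100 most abundant genes took 29.5% to 38.6% of all FPKM in MI libraries and 39.3% to 42.6% in sham libraries, and FPKM are relative to the total of each library. Differences were tested with limma on log2(FPKM + 1) over 12858 genes, and a gene was called when its Benjamini-Hochberg adjusted p was below 0.05. A fold on this scale understates the change of a gene with little RNA, so the plain ratio of mean FPKM is given as well.

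The median gene of both parts stood highest 1 week after MI. In the median S phase gene, the mean level was 2.49 FPKM in MI and 1.51 FPKM in sham ventricles at 1 day, 7.98 FPKM in MI and 2.07 FPKM in sham ventricles at 1 week, and 4.04 FPKM in MI and 1.48 FPKM in sham ventricles at 8 weeks. In the median mitosis gene it was 0.216 FPKM in MI and 0.196 FPKM in sham ventricles at 1 day, 4.67 FPKM in MI and 0.580 FPKM in sham ventricles at 1 week, and 1.05 FPKM in MI and 0.310 FPKM in sham ventricles at 8 weeks. The number of mitosis genes at 1 FPKM or more was 1, 1 and 1 in MI and 3, 1 and 3 in sham libraries at 1 day, 36, 36 and 36 in MI and 11, 4 and 8 in sham libraries at 1 week, and 12, 21 and 26 in MI and 2, 4 and 2 in sham libraries at 8 weeks. Of the mitosis genes 22, and no S phase gene, met the minimum for testing only through the MI 1 week libraries. In total all 46 members met it. The mean of the MI libraries was highest at 1 week for 45 of 46 members, the exception being Ccnd1, which was highest at 8 weeks.

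One day after MI, several S phase genes were higher in MI than in sham ventricles and few mitosis genes were called. Of the 10 S phase genes, 6 were higher (Mcm2, Mcm3, Mcm5, Mcm6, Pcna and Tyms), Tk1 was lower and 3 were not called. Mcm3, Mcm6, Pcna and Tyms, which are 4 of 10, were called higher on FPKM and on 3 other scalings described below. The share of all genes called higher on all 4 is not given here. It is at most 33.9%, the share with quantile normalization, so 4 of 10 is not read as setting these genes apart. Of the 36 mitosis genes, 2 were higher (Ccnd1 and Kif23), Cenpf was lower and 33 were not called. Together 8 of 46 members were called higher (17.4%) and 2 lower, where 39.7% of all tested genes were called higher and 30.6% lower. The median log2 fold change was 0.28 over the S phase genes and 0.04 over the mitosis genes, against 0.09 over all tested genes. The median ratio of mean FPKM was 1.41 over the S phase genes. By role it lay between 1.11 and 1.58 in the mitosis genes. The median mitosis gene had 0.216 FPKM in MI and 0.196 FPKM in sham ventricles, levels at which log2(FPKM + 1) understates a change. The difference between the 2 parts in log2 fold change is therefore in part one of scale. All MI libraries lay above all sham libraries for 16 members and below them for 4, where 45.4% of all genes lay above and 35.9% below. The counts moved with the settings. With a pseudocount of 0.1 in place of 1, 6 S phase and 8 mitosis genes were higher and 1 and 2 lower, with each stage fitted alone 16 members were higher and 4 lower, and without MI 1 day replicate 3 or sham 1 day replicate 3 only 5 were higher. In the 32 members with a single transcript model, from which fragments could be inferred, the median member had 30 fragments in MI 1 day and 24 in sham 1 day libraries.

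At 1 week the change was general. All 10 S phase genes and 35 of 36 mitosis genes were higher in MI than in sham ventricles and none was called lower, also at an unadjusted p, so that 45 of 46 members were called higher (97.8%), where 72.8% of all tested genes were called higher and 16.5% lower. The median ratio of mean FPKM was 4.95 over the S phase genes, 9.44 over the mitosis genes and 2.02 over all tested genes, and the median log2 fold changes were 1.74, 1.86 and 0.79. The smallest ratio belonged to Ccnd1 (0.863, not called) and the largest to Plk1 (15). All MI libraries lay above all sham libraries for 44 members, Ccnd1 and Cenpf being the exceptions, where 74.8% of all genes did so. Because the general shift of all genes toward MI was large, the counts were also taken on 3 other scalings (median-ratio factors, quantile normalization and the authors' own normalized values), where 44, 43 and 43 members were still called higher and 1, 2 and 2 were called lower. On these scalings 41.7%, 40.5% and 41.2% of all genes were called higher and 39.6%, 40.3% and 39.6% lower. The 22 mitosis genes that met the minimum only through the MI 1 week libraries had to be high there, and all 22 were called higher. Of the other 24 members 23 were. The 10 S phase genes and 33 mitosis genes were called higher on all 4 scalings. The share of all genes called higher on all 4 is not given here. It is at most 40.5%, the share with quantile normalization. Ccne2 lost its call on some of the scalings, Cenpf changed direction and Ccnd1 was called lower.

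At 8 weeks the members were still above sham ventricles in FPKM, at a smaller distance. All 10 S phase genes and 34 of 36 mitosis genes were called higher, Cenpf was called lower and Ttk was not called, so that 44 of 46 members were called higher (95.7%), where 70.4% of all tested genes were called higher and 10.6% lower. The median ratio of mean FPKM was 2.65 over the S phase genes, 3.21 over the mitosis genes and 1.66 over all tested genes. The count depended on the scaling: 33 members were called higher and 1 lower with median-ratio factors, 10 higher and 7 lower with quantile normalization, and 11 higher and 2 lower on the authors' normalized values. Of all genes 34.6%, 29.4% and 30.8% were higher on these scalings and 38.1%, 40.9% and 39.8% lower. With quantile normalization 21 mitosis genes had a log2 fold change below 0 in place of above 0, with 8 on the authors' normalized values and 1 with median-ratio factors. The S phase part held with 8 of 10 genes higher on each of the 3, while the mitosis part had 25, 2 and 3 of 36 genes higher on them and 1, 7 and 2 lower. The members called higher on all 4 scalings were Mcm2, Mcm3, Mcm4, Mcm5, Mcm6, Mcm7, Rrm2, E2f1 and Birc5, and Cenpf was lower on all 4. The shares of all genes called on all 4 are not given here. They are at most 29.4% higher and 10.6% lower, the lowest shares on a single scaling. All MI libraries lay above all sham libraries for 44 members and below them for Cenpf, where 66.3% of all genes lay above and 10.9% below.

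**Figure D1:**
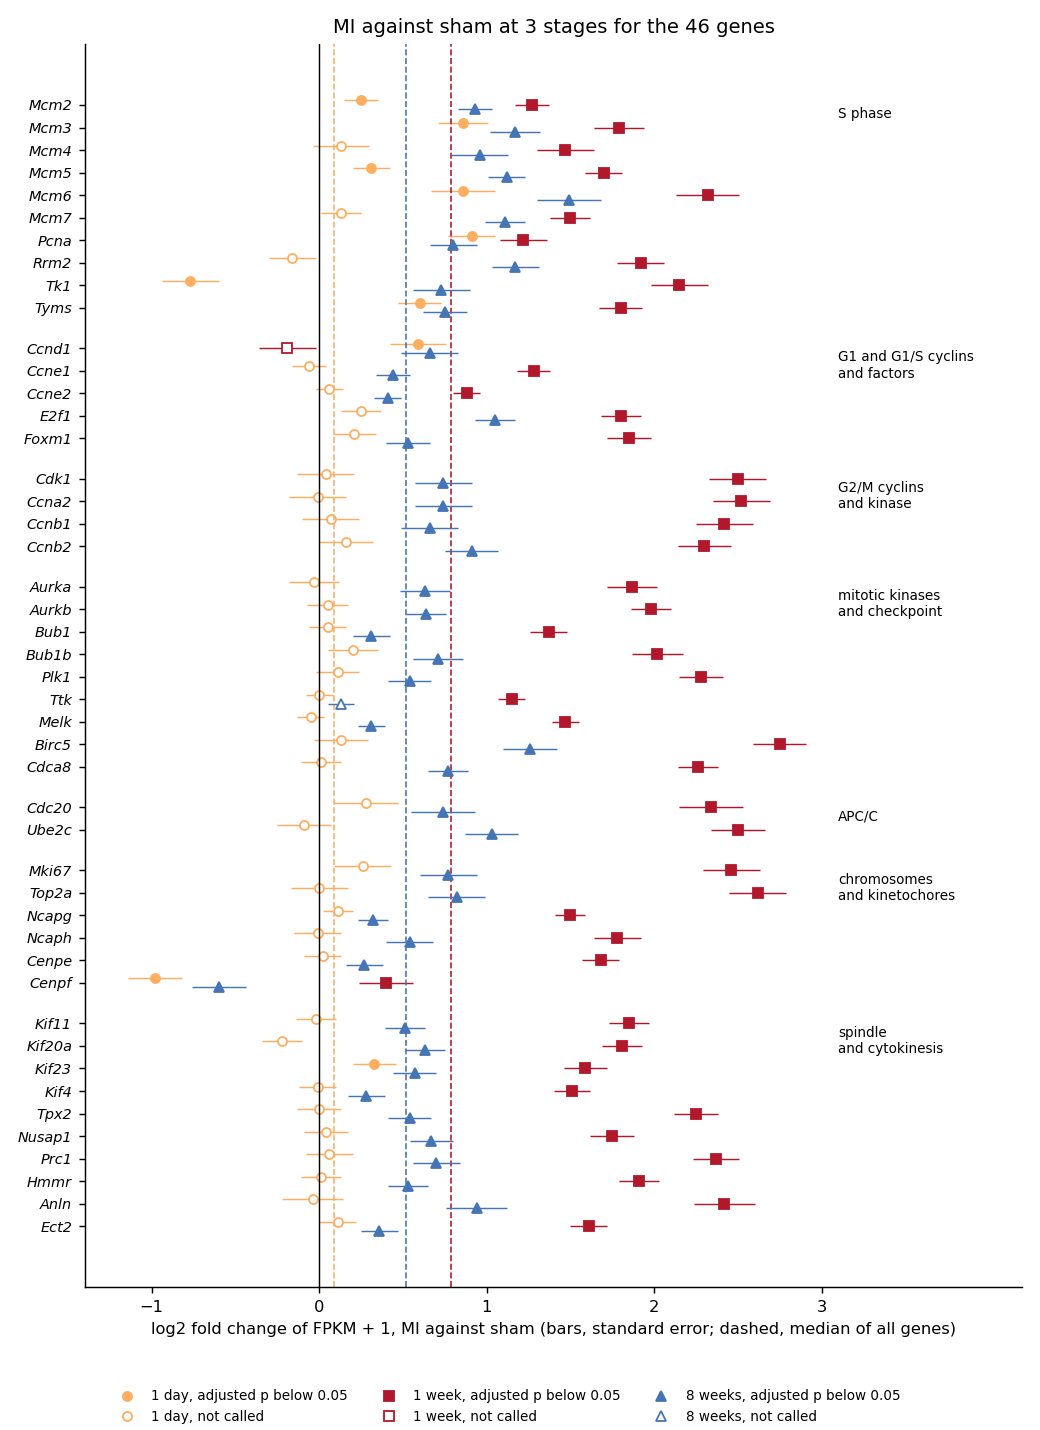
log2 fold change (MI over sham, on log2(FPKM + 1)) of each of the 46 members at each stage, grouped by role, with filled points for members called at an adjusted p below 0.05 and open points for the others. At 1 week the points of every role lie to the right of 0 except that of Ccnd1, and Cenpf lies left of 0 at 1 day and 8 weeks.

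The Mcm2 to Mcm7 proteins form the helicase that unwinds DNA at replication origins. Mcm6 had 6.47, 5.79 and 5.94 FPKM with MI, against 2.52, 2.95 and 3.24 FPKM with sham at 1 day. For the 1 week libraries the values were 18.7, 20 and 14.4 FPKM with MI, against 3.01, 2.32 and 2.89 FPKM with sham, and for the 8 weeks libraries 5.23, 8.9 and 11.5 FPKM with MI, against 2.41, 2.44 and 1.96 FPKM with sham. No library with MI fell among the sham libraries of its stage, and the log2 fold changes were 0.86 (SE 0.19, adjusted p = 0.000713), 2.32 (SE 0.19, adjusted p = 1.33e-08) and 1.49 (SE 0.19, adjusted p = 4.26e-06). Mcm3 followed the same order, with 3.48, 3.51 and 4.15 FPKM with MI, against 1.28, 1.81 and 1.73 FPKM with sham at 1 day, 9.96, 10.7 and 9.15 FPKM with MI, against 2.48, 1.9 and 2.1 FPKM with sham at 1 week, and 3.14, 5.19 and 6.03 FPKM with MI, against 1.46, 1.42 and 1.63 FPKM with sham at 8 weeks. Its log2 fold changes were 0.86 (SE 0.15, adjusted p = 0.000105), 1.79 (SE 0.15, adjusted p = 2.03e-08) and 1.17 (SE 0.15, adjusted p = 5.4e-06), so Mcm3 and Mcm6 had the largest changes of the helicase genes at 1 day. Mcm2 had 1.92, 1.67 and 2.01 FPKM with MI, against 1.31, 1.42 and 1.5 FPKM with sham at 1 day (log2 fold change 0.25 (SE 0.10, adjusted p = 0.0413)). Mcm5 had 1.41, 1.32 and 1.5 FPKM with MI, against 1.03, 0.976 and 0.819 FPKM with sham at 1 day (log2 fold change 0.31 (SE 0.11, adjusted p = 0.0218)). Both differences were small, and both lost their call at 1 day on quantile-normalized values and on the authors' normalized values, Mcm2 also with median-ratio factors.

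Mcm4 and Mcm7 were not called at 1 day. Mcm4 had 2.57, 2.84 and 2.54 FPKM with MI, against 2.0, 2.42 and 2.58 FPKM with sham, and Mcm7 had 2.68, 3.07 and 2.84 FPKM with MI, against 2.23, 2.88 and 2.5 FPKM with sham, with overlapping groups in both. At 1 week both were higher, Mcm4 with 7.61, 8.59 and 7.29 FPKM with MI, against 2.29, 2.18 and 2.04 FPKM with sham (log2 fold change 1.47 (SE 0.17, adjusted p = 4.95e-07)), and Mcm7 with 10.4, 10.2 and 8.91 FPKM with MI, against 2.88, 2.65 and 2.98 FPKM with sham (log2 fold change 1.5 (SE 0.12, adjusted p = 7.47e-09)). At 8 weeks Mcm4 had 2.55, 4.77 and 5.96 FPKM with MI, against 1.65, 1.72 and 1.67 FPKM with sham, and Mcm7 had 5.26, 5.98 and 7.7 FPKM with MI, against 2.49, 2.01 and 2.59 FPKM with sham. All 6 helicase genes were called higher at 1 week and at 8 weeks. Mcm2 had 3.06, 3.95 and 3.97 FPKM with MI, against 1.39, 1.23 and 1.72 FPKM with sham at 8 weeks. Mcm5 had 1.93, 2.62 and 3.16 FPKM with MI, against 0.619, 0.526 and 0.736 FPKM with sham at 8 weeks, the largest ratio among the S phase genes at that stage (4.1). The 8 weeks libraries did not overlap in either.

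Pcna, the sliding clamp of the replication fork, which also serves DNA repair, was the most abundant S phase gene. It had 40.1, 48.4 and 41 FPKM with MI, against 21.7, 21.8 and 23.7 FPKM with sham at 1 day. A week after surgery Pcna had 55.2, 53.8 and 51.5 FPKM with MI, against 24.1, 20.4 and 22.6 FPKM with sham, and after 8 weeks 23.7, 35.9 and 39.4 FPKM with MI, against 17.4, 18.7 and 18.4 FPKM with sham. Its ratios of means were 1.93, 2.39 and 1.82 at the 3 stages, and its log2 fold changes were 0.91 (SE 0.14, adjusted p = 1.83e-05), 1.22 (SE 0.14, adjusted p = 3.8e-07) and 0.80 (SE 0.14, adjusted p = 7.49e-05). On log2(FPKM + 1) Pcna so had the largest rise of all members at 1 day and the smallest of the S phase genes at 1 week. Several other members had larger ratios of means at 1 day, the largest being those of Kif23 (2.82), Foxm1 (2.64) and Mcm3 (2.31). The 8 weeks call was lost with median-ratio factors. Pseudogenes named for Pcna and for Tyms exist in the genome, and the counting of reads shared with them is not known here.

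Rrm2, Tyms and Tk1 supply the nucleotides of DNA: Rrm2 is the small subunit of ribonucleotide reductase, and thymidylate synthase (Tyms) and thymidine kinase 1 (Tk1) make thymidine nucleotides by separate routes. Tyms had 1.96, 2.5 and 2.54 FPKM with MI, against 1.28, 1.09 and 1.21 FPKM with sham at 1 day. Later, Tyms had 7.52, 6.57 and 6.13 FPKM with MI, against 1.41, 1.01 and 1.24 FPKM with sham at 1 week, and 1.94, 2.33 and 3.45 FPKM with MI, against 1.12, 1.03 and 1.14 FPKM with sham at 8 weeks. It was called higher at all 3 stages, with log2 fold changes of 0.60 (SE 0.13, adjusted p = 0.000591), 1.80 (SE 0.13, adjusted p = 3.65e-09) and 0.75 (SE 0.13, adjusted p = 8.29e-05), and lost the 8 weeks call on quantile-normalized and on the authors' normalized values. Rrm2 had 0.616, 0.626 and 0.529 FPKM with MI, against 0.724, 0.816 and 0.806 FPKM with sham at 1 day, where its MI libraries all lay below sham although the difference was not called (log2 fold change -0.16 (SE 0.14, adjusted p = 0.32)). Values of Rrm2 at 1 week were 6.92, 9.12 and 6.48 FPKM with MI, against 1.3, 1.18 and 1.18 FPKM with sham, and at 8 weeks they were 2.05, 3.59 and 3.53 FPKM with MI, against 0.646, 0.649 and 1.03 FPKM with sham. The 1 week and 8 weeks libraries with MI stood clear above sham, with ratios of 6.15 and 3.95.

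Tk1 was the one S phase gene called lower at 1 day. It had 0.146, 0.363 and 0.131 FPKM with MI, against 0.588, 1.43 and 1.26 FPKM with sham at 1 day, a ratio of means of 0.195 and a log2 fold change of -0.77 (SE 0.17, adjusted p = 0.000737). At 1 week it had 7.93, 9.71 and 6.73 FPKM with MI, against 1.12, 0.984 and 0.99 FPKM with sham, with the largest ratio of the S phase genes (7.87, log2 fold change 2.15 (SE 0.17, adjusted p = 9.01e-09)). At 8 weeks it had 1.52, 1.56 and 2.75 FPKM with MI, against 0.683, 0.777 and 0.769 FPKM with sham (log2 fold change 0.73 (SE 0.17, adjusted p = 0.00101)). Tk1 was below sham in every MI library at 1 day and above it in every MI library later, and the 8 weeks call was lost on the 3 other scalings. An exon of Tk1 overlaps one of Afmid on the other strand, and as the strand of the counting is not stated, reads of the pair cannot be told apart. In all, 17 of the 46 members have an exon that overlaps another gene, 15 on the other strand and 2 on the same. The counts of those members, not all named here, are uncertain in the same way.

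Ccnd1, Ccne1, Ccne2, E2f1 and Foxm1 govern entry into the cycle and its transcription. Ccnd1 (cyclin D1), which pairs with Cdk4 and Cdk6 in G1, was the most abundant gene of the mitosis part. It had 13.6, 18.8 and 16.7 FPKM with MI, against 10.6, 9.17 and 11.8 FPKM with sham at 1 day. For the 1 week libraries the values were 12.2, 14.2 and 16.6 FPKM with MI, against 20.4, 14.9 and 14.6 FPKM with sham, and for the 8 weeks libraries 20.1, 27.6 and 27.6 FPKM with MI, against 17.4, 12.8 and 16.4 FPKM with sham. MI libraries lay above sham at 1 day and 8 weeks and overlapped sham at 1 week, with log2 fold changes of 0.59 (SE 0.17, adjusted p = 0.00522), -0.19 (SE 0.17, adjusted p = 0.28) and 0.66 (SE 0.17, adjusted p = 0.00215). At 1 week it was the only member not called. On the other scalings Ccnd1 was called lower at 1 week (log2 fold change -0.94 with quantile normalization, -1.09 with median-ratio factors and -0.97 on the authors' normalized values) and lost its call at 8 weeks, where the value with median-ratio factors was -0.04.

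E2f1, an activator of S phase genes, had 0.539, 0.691 and 0.713 FPKM with MI, against 0.403, 0.444 and 0.298 FPKM with sham at 1 day. A week after surgery E2f1 had 4.58, 4.6 and 3.98 FPKM with MI, against 0.60, 0.562 and 0.469 FPKM with sham, and after 8 weeks 1.43, 1.52 and 2.67 FPKM with MI, against 0.341, 0.344 and 0.406 FPKM with sham. Its libraries did not overlap at any stage, the log2 fold changes were 0.25 (SE 0.12, adjusted p = 0.0738), 1.80 (SE 0.12, adjusted p = 2.1e-09) and 1.05 (SE 0.12, adjusted p = 1.79e-06), and its ratio at 8 weeks (5.16) was the largest of this group of 5. At 1 day it passed the threshold with median-ratio factors (adjusted p = 0.017) and on the authors' normalized values (adjusted p = 0.0381). Foxm1, an activator of G2 and M genes, had 0.266, 0.355 and 0.216 FPKM with MI, against 0.0964, 0.123 and 0.0975 FPKM with sham at 1 day. Later, Foxm1 had 4.41, 5.09 and 3.3 FPKM with MI, against 0.525, 0.33 and 0.492 FPKM with sham at 1 week, and 0.484, 0.883 and 1.2 FPKM with MI, against 0.262, 0.211 and 0.332 FPKM with sham at 8 weeks. It was not called at 1 day (0.21 (SE 0.13, adjusted p = 0.171)) and was higher at 1 week (1.85 (SE 0.13, adjusted p = 3.68e-09)) and 8 weeks (0.53 (SE 0.13, adjusted p = 0.00174)). The 8 weeks call of Foxm1 was lost on quantile-normalized (-0.13) and on the authors' normalized values (0.02). Exons of E2f1 and Foxm1 overlap Necab3 and Tex52 on the same strand, so their counts are uncertain to that extent.

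The E cyclins pair with Cdk2 at the start of S phase. Ccne1 had 2.79, 2.64 and 2.13 FPKM with MI, against 0.373, 0.391 and 0.583 FPKM with sham at 1 week, and 0.609, 0.716 and 0.904 FPKM with MI, against 0.318, 0.392 and 0.151 FPKM with sham at 8 weeks. Ccne2 had 2.27, 2.39 and 2.1 FPKM with MI, against 0.881, 0.72 and 0.70 FPKM with sham at 1 week, and 1.04, 1.3 and 1.48 FPKM with MI, against 0.679, 0.725 and 0.706 FPKM with sham at 8 weeks. At 1 day their log2 fold changes were -0.06 and 0.06, without a call. At 1 week Ccne1 had the larger change, with ratios of 5.61 for Ccne1 and 2.94 for Ccne2. At 8 weeks Ccne1 was not called on the other 3 scalings, and Ccne2 was called lower with quantile normalization (-0.29) and on the authors' normalized values (-0.23).

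Cdk1 with cyclins A2 (Ccna2), B1 (Ccnb1) and B2 (Ccnb2) drives entry into mitosis. These 4 genes had ratios between 9.37 and 13.4 at 1 week, and none was called at 1 day. Cdk1 had 0.177, 0.122 and 0.206 FPKM with MI, against 0.0754, 0.172 and 0.163 FPKM with sham at 1 day. Values of Cdk1 at 1 week were 8.7, 9.05 and 6.64 FPKM with MI, against 0.853, 0.372 and 0.618 FPKM with sham, and at 8 weeks they were 0.647, 1.32 and 1.93 FPKM with MI, against 0.35, 0.235 and 0.443 FPKM with sham. The log2 fold changes of Cdk1 were 0.04 (SE 0.17, adjusted p = 0.847), 2.50 (SE 0.17, adjusted p = 1.95e-09) and 0.74 (SE 0.17, adjusted p = 0.000821), and the 1 day groups overlapped. Ccnb1 had 0.236, 0.0419 and 0.0471 FPKM with MI, against 0.0542, 0.0637 and 0.0384 FPKM with sham at 1 day, where its inferred fragments were 18, 3 and 4 in MI and 4, 5 and 3 in sham libraries. The MI mean at that stage rests on replicate 1, since the log2 fold change was 0.07 with it and -0.01 without it. At 1 week Ccnb1 had 7.72, 8.67 and 5.27 FPKM with MI, against 0.904, 0.299 and 0.407 FPKM with sham, and at 8 weeks 0.629, 1.04 and 1.42 FPKM with MI, against 0.302, 0.222 and 0.279 FPKM with sham. Pseudogenes named for Ccnb1 and Ccnb2 exist in the genome.

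At 8 weeks Ccna2 had 0.908, 1.52 and 2.39 FPKM with MI, against 0.592, 0.324 and 0.643 FPKM with sham. Ccnb2 had 1.06, 1.64 and 2.13 FPKM with MI, against 0.457, 0.21 and 0.462 FPKM with sham, the largest ratio of the 4 at that stage (4.28, log2 fold change 0.91 (SE 0.16, adjusted p = 9.85e-05)). MI replicate 3 was the highest and MI replicate 1 the lowest of the MI libraries in all 4 genes. The 8 weeks calls of all 4 were kept with median-ratio factors and lost on quantile-normalized and on the authors' normalized values.

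Among the mitotic kinases and checkpoint genes, Plk1 (a kinase of spindle assembly and mitotic entry), Aurka and Aurkb (Aurora kinases of the spindle poles and of the chromosomal passenger complex), Bub1, Bub1b and Ttk (spindle checkpoint), Melk (a kinase that peaks in mitosis), and Birc5 (survivin) and Cdca8 (borealin) of the passenger complex were measured. None of the 9 was called at 1 day. At 1 week each of the 9 was higher with MI, with ratios between 8.45 (Ttk) and 15 (Plk1). Plk1 had 0.18, 0.118 and 0.162 FPKM with MI, against 0.0143, 0.121 and 0.0811 FPKM with sham at 1 day. For the 1 week libraries the values were 5.37, 7.21 and 4.81 FPKM with MI, against 0.491, 0.302 and 0.363 FPKM with sham, and for the 8 weeks libraries 0.518, 0.753 and 1.16 FPKM with MI, against 0.186, 0.141 and 0.383 FPKM with sham. Its 1 week log2 fold change was 2.28 (SE 0.13, adjusted p = 5.75e-10) and its 8 weeks one 0.54 (SE 0.13, adjusted p = 0.00156). The 8 weeks call of Plk1 was lost on quantile-normalized (-0.11) and on the authors' normalized values (0.05). Birc5 had 0.399, 0.31 and 0.557 FPKM with MI, against 0.191, 0.453 and 0.246 FPKM with sham at 1 day. A week after surgery Birc5 had 12.3, 15.5 and 9.52 FPKM with MI, against 1.23, 0.674 and 1.02 FPKM with sham, and after 8 weeks 1.84, 2.56 and 2.92 FPKM with MI, against 0.346, 0.462 and 0.472 FPKM with sham. Its log2 fold change of 2.75 (SE 0.16, adjusted p = 5.23e-10) was the largest of the 46 members at 1 week, and its ratio of 5.72 was the largest at 8 weeks (log2 fold change 1.26 (SE 0.16, adjusted p = 3.78e-06)). Birc5 was also 1 of the 2 mitosis genes that were called higher at 8 weeks on all 4 scalings, the other being E2f1.

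At 8 weeks Aurka had 0.611, 1.28 and 1.41 FPKM with MI, against 0.30, 0.24 and 0.486 FPKM with sham, and Aurkb had 0.646, 1.13 and 1.14 FPKM with MI, against 0.242, 0.267 and 0.268 FPKM with sham. Cdca8 had 1.09, 1.06 and 1.82 FPKM with MI, against 0.336, 0.33 and 0.393 FPKM with sham. In these 3 genes no MI library fell among sham, with ratios of 3.22, 3.74 and 3.75. Bub1 had 0.173, 0.304 and 0.545 FPKM with MI, against 0.0773, 0.0757 and 0.0712 FPKM with sham at 8 weeks, and Bub1b had 0.562, 1.16 and 1.59 FPKM with MI, against 0.284, 0.199 and 0.306 FPKM with sham. Melk had 0.287, 0.382 and 0.444 FPKM with MI, against 0.118, 0.0346 and 0.174 FPKM with sham. Bub1, Bub1b and Melk had ratios of 4.56, 4.2 and 3.41 from levels under 1 FPKM in most libraries. With quantile normalization the 8 weeks log2 fold change was below 0 in Aurka (-0.06), Aurkb (-0.03), Bub1 (-0.15), Melk (-0.17) and Plk1 (-0.11), without a call.

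Ttk was the least abundant member in MI 1 week libraries and the one gene of this group not called at 8 weeks. It had 1.5, 2.0 and 1.47 FPKM with MI, against 0.182, 0.193 and 0.213 FPKM with sham at 1 week, and 0.12, 0.198 and 0.392 FPKM with MI, against 0.0946, 0.151 and 0.131 FPKM with sham at 8 weeks. The 8 weeks groups overlapped, with a log2 fold change of 0.13 (SE 0.08, adjusted p = 0.163), and quantile normalization gave -0.33 and called it lower. Melk at 1 day had 0.0306, 0.0218 and 0.0184 FPKM with MI, against 0.0528, 0.0596 and 0.0698 FPKM with sham, all MI libraries below sham but not called (-0.05 (SE 0.08, adjusted p = 0.608)), with 2 to 3 inferred fragments in MI and 5 to 7 in sham libraries.

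Cdc20 and Ube2c act with the anaphase-promoting complex, Cdc20 as its activator and Ube2c as its ubiquitin-conjugating enzyme. Ube2c had 0.679, 0.282 and 0.409 FPKM with MI, against 0.43, 0.735 and 0.48 FPKM with sham at 1 day. Later, Ube2c had 14.3, 16.9 and 11.2 FPKM with MI, against 2.09, 1.12 and 1.84 FPKM with sham at 1 week, and 2.69, 2.79 and 2.82 FPKM with MI, against 0.874, 1.03 and 0.646 FPKM with sham at 8 weeks. The log2 fold changes of Ube2c were -0.09 (SE 0.16, adjusted p = 0.616), 2.50 (SE 0.16, adjusted p = 1.11e-09) and 1.03 (SE 0.16, adjusted p = 2.38e-05), and groups overlapped at 1 day. Cdc20 had 8.88, 11.7 and 6.6 FPKM with MI, against 1.48, 0.537 and 0.918 FPKM with sham at 1 week, and 1.0, 1.86 and 2.0 FPKM with MI, against 0.572, 0.494 and 0.577 FPKM with sham at 8 weeks. Its ratios at these stages were 9.24 and 2.96. Cdc20 lost its 8 weeks call on all 3 other scalings, and Ube2c on quantile-normalized and on the authors' normalized values.

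Mki67 (the Ki-67 protein, a coat of mitotic chromosomes), Top2a (topoisomerase II alpha, which untangles DNA), Ncapg and Ncaph (condensin I) and Cenpe and Cenpf (kinetochore) form the chromosome group. Top2a had 0.177, 0.23 and 0.214 FPKM with MI, against 0.20, 0.193 and 0.232 FPKM with sham at 1 day. Values of Top2a at 1 week were 13.7, 16.1 and 11 FPKM with MI, against 1.86, 0.917 and 1.36 FPKM with sham, and at 8 weeks they were 1.27, 2.09 and 2.88 FPKM with MI, against 0.706, 0.562 and 0.857 FPKM with sham. At 1 day its groups overlapped with a ratio of 0.992, and at 1 week the log2 fold change was 2.62 (SE 0.17, adjusted p = 1.95e-09). Mki67 had 0.481, 0.481 and 0.465 FPKM with MI, against 0.171, 0.251 and 0.288 FPKM with sham at 1 day. For the 1 week libraries the values were 11.2, 12.7 and 8.91 FPKM with MI, against 1.54, 0.854 and 1.14 FPKM with sham, and for the 8 weeks libraries 1.1, 1.87 and 2.82 FPKM with MI, against 0.682, 0.555 and 0.779 FPKM with sham. All Mki67 values with MI lay above sham at each stage, but the 1 day difference was not called (0.26 (SE 0.17, adjusted p = 0.197)). Its later log2 fold changes were 2.46 (SE 0.17, adjusted p = 3e-09) and 0.77 (SE 0.17, adjusted p = 0.000762). The 8 weeks calls of Top2a and Mki67 were lost on quantile-normalized (0.10 and 0.06) and on the authors' normalized values (0.11 and 0.08).

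Condensin genes and Cenpe had little RNA outside the MI 1 week libraries. At 8 weeks Ncapg had 0.279, 0.35 and 0.572 FPKM with MI, against 0.107, 0.125 and 0.126 FPKM with sham. Ncaph had 0.495, 0.97 and 1.31 FPKM with MI, against 0.182, 0.301 and 0.425 FPKM with sham, and Cenpe had 0.218, 0.31 and 0.513 FPKM with MI, against 0.0945, 0.119 and 0.128 FPKM with sham. Their ratios at 8 weeks were 3.35, 3.06 and 3.05. Quantile normalization called Ncapg (-0.21) and Cenpe (-0.23) lower at that stage, and the authors' normalized values called none of the 3.

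Cenpf stood apart from every other mitosis gene. It had 0.0737, 0.0379 and 0.0891 FPKM with MI, against 1.12, 0.956 and 1.24 FPKM with sham at 1 day, which is a ratio of means of 0.0605. It had 2.2, 2.7 and 1.74 FPKM with MI, against 1.46, 1.93 and 0.973 FPKM with sham at 1 week, and 0.504, 0.564 and 0.619 FPKM with MI, against 1.3, 2.03 and 0.902 FPKM with sham at 8 weeks, where the ratio was 0.399. All MI libraries lay below all sham libraries at 1 day and at 8 weeks, and the groups overlapped at 1 week. In inferred fragments, the MI libraries had 29, 14 and 39 and the sham libraries 426, 385 and 497 at 1 day. The log2 fold changes were -0.98 (SE 0.16, adjusted p = 4.2e-05), 0.40 (SE 0.16, adjusted p = 0.0273) and -0.60 (SE 0.16, adjusted p = 0.00272). The 1 week call was lost without MI 1 week replicate 1 (0.39, adjusted p = 0.0561), MI 1 week replicate 2 (0.29, adjusted p = 0.127) or sham 1 week replicate 3 (0.25, adjusted p = 0.161), and the value was -0.42 with quantile normalization, -0.21 with median-ratio factors and -0.39 on the authors' normalized values. In sham ventricles its level was 1.11 ± 0.142 FPKM at 1 day, and among the mitosis genes only Ccnd1 and Kif20a had a higher sham mean at that stage.

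The last group holds the spindle and cytokinesis genes: the motor proteins Kif4, Kif11, Kif20a and Kif23, the spindle proteins Tpx2, Nusap1, Hmmr and Prc1, and Anln (anillin) and Ect2 of the cleavage furrow. Kif23 was the only one called at 1 day, with 0.335, 0.586 and 0.503 FPKM with MI, against 0.196, 0.142 and 0.168 FPKM with sham and a log2 fold change of 0.33 (SE 0.13, adjusted p = 0.0356). That call was lost when MI 1 day replicate 2 or 3 or any sham 1 day library was left out. Kif20a had 0.881, 0.794 and 0.998 FPKM with MI, against 1.25, 0.988 and 1.41 FPKM with sham at 1 day, and was not called (-0.22 (SE 0.12, adjusted p = 0.107)) but was called lower on the 3 other scalings (-0.30 to -0.33). Anln had 0.207, 0.125 and 0.162 FPKM with MI, against 0.143, 0.222 and 0.223 FPKM with sham at 1 day. A week after surgery Anln had 7.43, 8.75 and 5.65 FPKM with MI, against 0.692, 0.459 and 0.439 FPKM with sham, and after 8 weeks 0.741, 1.71 and 2.34 FPKM with MI, against 0.26, 0.27 and 0.406 FPKM with sham. The ratio of Anln, 13.7 at 1 week and 5.12 at 8 weeks, was the largest of the 10 genes at both stages, with log2 fold changes of 2.42 (SE 0.18, adjusted p = 5e-09) and 0.94 (SE 0.18, adjusted p = 0.000209). Its 8 weeks call was lost with quantile normalization (0.24).

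All 10 of these genes were higher at 1 week, with ratios between 5.23 (Kif20a) and 13.7 (Anln). Kif20a had 8.14, 8.79 and 6.48 FPKM with MI, against 1.55, 1.32 and 1.61 FPKM with sham at 1 week, and 1.89, 2.26 and 2.84 FPKM with MI, against 0.952, 1.26 and 1.2 FPKM with sham at 8 weeks. Kif23 had 4.09, 4.77 and 3.65 FPKM with MI, against 0.873, 0.486 and 0.811 FPKM with sham at 1 week, and 0.554, 0.945 and 1.32 FPKM with MI, against 0.248, 0.214 and 0.42 FPKM with sham at 8 weeks. Both were called higher at both stages in FPKM. An exon of Kif20a overlaps exons of Brd8 and Cdc23 on the other strand, which leaves its share of the reads uncertain. At 8 weeks Prc1, which bundles the central spindle, had 1.2, 1.54 and 2.02 FPKM with MI, against 0.523, 0.425 and 0.809 FPKM with sham. Hmmr had 0.455, 0.774 and 0.837 FPKM with MI, against 0.165, 0.105 and 0.23 FPKM with sham, and Ect2, which activates RhoA at the furrow, had 0.238, 0.474 and 0.737 FPKM with MI, against 0.174, 0.115 and 0.14 FPKM with sham. Ratios of these 3 were 2.71, 4.13 and 3.38. With quantile normalization Ect2 was called lower at 8 weeks (-0.20, adjusted p = 0.0199), and Prc1 and Hmmr lost their calls on quantile-normalized and on the authors' normalized values, as Ect2 did on the authors' values.

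Kif11, the motor that pushes spindle poles apart, had 0.614, 0.864 and 1.13 FPKM with MI, against 0.317, 0.265 and 0.338 FPKM with sham at 8 weeks. Kif4 had 0.216, 0.397 and 0.626 FPKM with MI, against 0.177, 0.125 and 0.163 FPKM with sham, from levels under 1 FPKM in every library of that stage, and a pseudogene named for it exists. Tpx2, the activator of Aurora A, had 0.623, 1.0 and 1.24 FPKM with MI, against 0.312, 0.316 and 0.364 FPKM with sham. In all 3 the MI libraries lay above sham, and none of the 3 was called higher on quantile-normalized or on the authors' normalized values. Kif4 was called lower with quantile normalization (-0.28, adjusted p = 0.00568). Nusap1 had 0.627, 1.19 and 1.39 FPKM with MI, against 0.222, 0.271 and 0.352 FPKM with sham at 8 weeks (log2 fold change 0.67 (SE 0.13, adjusted p = 0.000194)). That call was lost on quantile-normalized (0) and on the authors' normalized values (0.12).

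**Figure D2:**
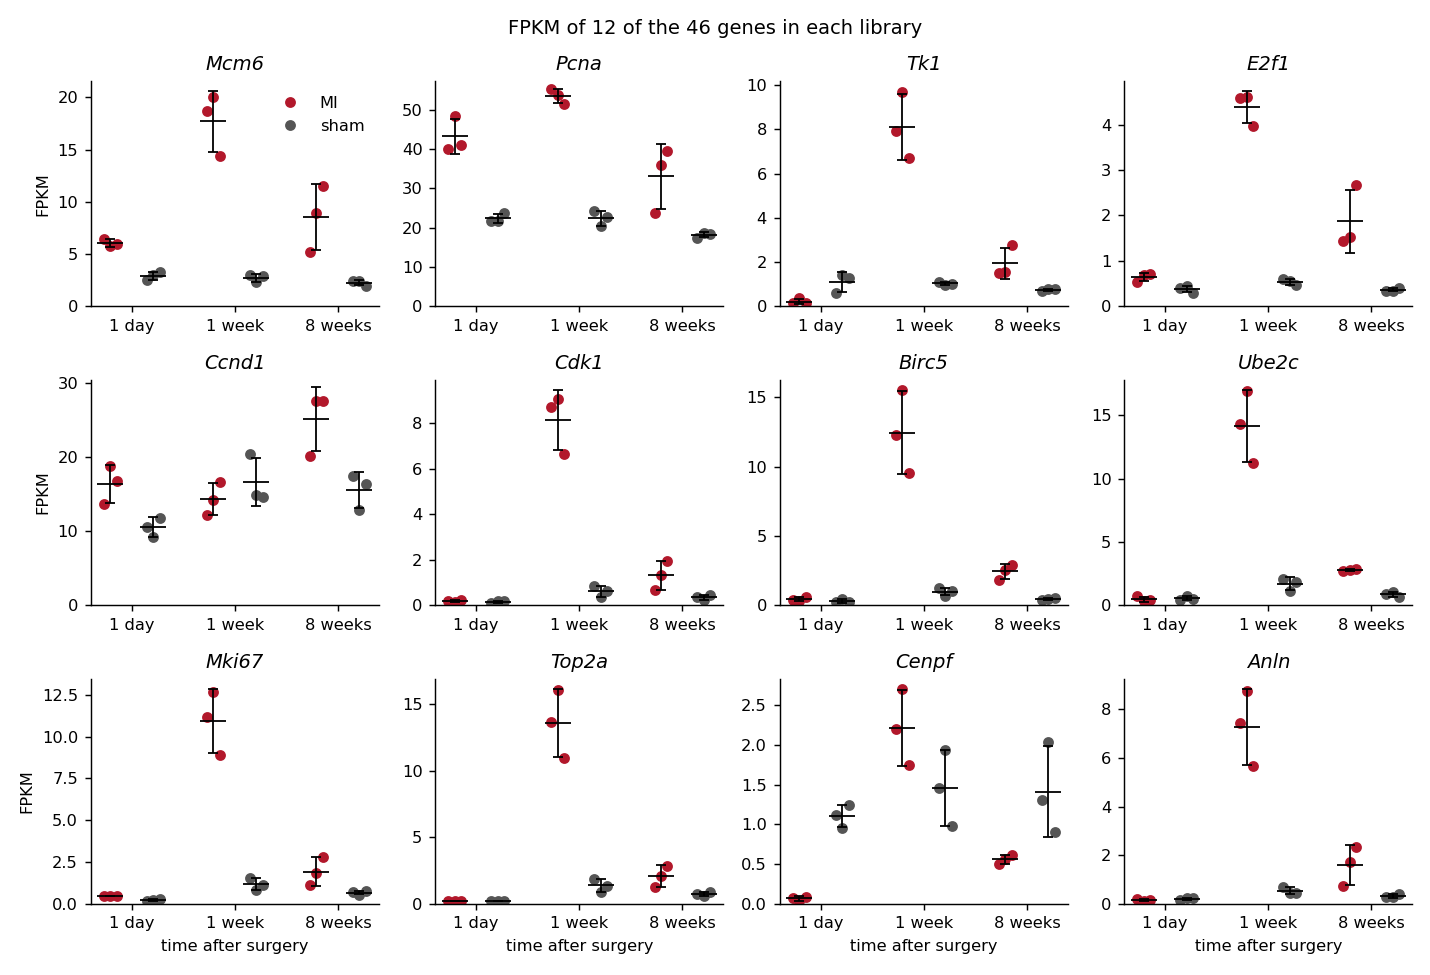
FPKM of 12 members (Mcm6, Pcna, Tk1, E2f1, Ccnd1, Cdk1, Birc5, Ube2c, Mki67, Top2a, Cenpf and Anln) in every library, with MI left of sham at each stage, points for libraries and bars for group means. Ccnd1 and Cenpf are the panels in which MI 1 week does not stand clear above sham 1 week.

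The order of the replicates was shared by nearly all members. Within MI 8 weeks, replicate 3 was the highest library for 44 of 46 members and replicate 1 the lowest for 45. Within MI 1 week, replicate 2 was the highest for 41 and replicate 3 the lowest for 45. Markers of other cells moved with this order in MI 8 weeks and only in part in MI 1 week. In MI 8 weeks replicates 1, 2 and 3 the 16 cardiomyocyte markers summed to 45200, 30800 and 18700 FPKM. The 12 markers of activated fibroblasts summed to 1200, 1960 and 4530 FPKM and the 11 macrophage markers to 330, 448 and 800 FPKM. In MI 1 week replicates 1, 2 and 3 the cardiomyocyte sums were 3290, 5470 and 10600 FPKM and the fibroblast sums 23600, 23100 and 18500 FPKM, so replicate 3 had the most muscle RNA and the least of both the fibroblast and the cell cycle genes. Replicate 2, the highest for 41 members, had neither the lowest muscle sum nor the highest fibroblast sum. The macrophage sums of MI 1 week lay between 1650 and 1840 FPKM. The part of these differences in the members' values was not tested.

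The counts of called markers between MI and sham stand against 39.7%, 72.8% and 70.4% of all genes called higher and 30.6%, 16.5% and 10.6% lower at the 3 stages in order. Cardiomyocyte markers were lower in 16, 16 and 10 of 16 genes at the 3 stages in order. Macrophage markers were higher in 5, 11 and 11 of 11 genes and fibroblast markers in 5, 12 and 12 of 12, and fibroblast sums reached 18500 to 23600 FPKM in MI 1 week libraries, against 351 to 458 FPKM in sham 1 week libraries. Macrophage sums were 1650 to 1840 FPKM in MI 1 week and 89.4 to 152 FPKM in sham 1 week libraries. The stage at which the cell cycle genes stood highest was thus also that of the highest fibroblast and macrophage sums and the lowest muscle sums. Neutrophil markers were highest at 1 day (6210 to 10100 FPKM in MI and 19.1 to 38.8 FPKM in sham libraries), where 9 of 9 were higher, with 7 and 6 higher at the later stages. Of 9 markers listed for dividing granulocyte precursors, 5 were in the table, and Elane, Mpo, Ctsg and Ms4a3 were not. The 5 had sums of 242 to 349 FPKM in MI 1 day and 1.38 to 2.89 FPKM in sham 1 day libraries. In sham 1 day 4 of them (Prtn3, Camp, Ltf and Ngp) were under 0.1 FPKM in every library. The 1 day log2 fold changes were 6.54 for Chil3, 3.61 for Ngp and 1.69 for Ltf. As neutrophil markers were highest at the same stage, these sums do not show dividing precursors. Lymphocyte markers were higher in 6, 7 and 6 of 7 tested genes, with sums of 13.4 to 18.9 FPKM in MI 1 week and 2.95 to 3.90 FPKM in sham 1 week libraries. Endothelial markers were higher in 5, 7 and 3 of 10 genes and lower in 2, 1 and 2, which at 1 week is close to the share of all genes and at 8 weeks under it. The part of any of these cells in the members' values was not tested.

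The MI effect itself was compared between stages, as the difference of the 2 differences. From 1 day to 1 week the effect was larger at 1 week in 44 of 46 members and smaller in 1 (Ccnd1), where 60.0% of all genes had a larger and 11.8% a smaller effect. Pcna was the one not called, with a difference of 0.31 (SE 0.19, adjusted p = 0.155) on FPKM and -0.52 with median-ratio factors (adjusted p = 0.000974). Tk1, which was lower at 1 day and higher at 1 week, had the largest difference (2.92 (SE 0.24, adjusted p = 8.41e-08)), and Ccnd1 had -0.78 (SE 0.24, adjusted p = 0.00802). From 1 week to 8 weeks the effect was smaller at 8 weeks in 41 members and larger in 1 (Ccnd1, 0.85 (SE 0.24, adjusted p = 0.00927)), where 29.9% of all genes had a smaller and 17.1% a larger effect. All 4 members without a call were S phase genes, and of the mitosis genes 35 of 36 had a smaller effect at 8 weeks. The 22 mitosis genes that met the minimum only through the MI 1 week libraries had to be high there. All 22 had a larger effect at 1 week than at 1 day and a smaller one at 8 weeks than at 1 week. Of the other 24 members, 22 had a larger effect at 1 week than at 1 day. A smaller effect at 8 weeks than at 1 week was found in 19 of these 24. The median difference was -0.60 over the S phase genes and -1.33 over the mitosis genes, against -0.20 over all tested genes. These comparisons share the libraries of the stage in common.

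The same contrast appears in plain levels. In MI ventricles the 8 weeks mean was 0.482 of the 1 week mean in the median S phase gene and 0.191 in the median mitosis gene, and it was lower in 45 of 46 members, with a lowest ratio of 0.112 (Cenpe) and a highest of 1.75 (Ccnd1). Between 8 weeks and 1 day the MI effect was larger at 8 weeks in 30 members and smaller in none (also at an unadjusted p), where 51.8% of all genes had a larger and 11.9% a smaller effect. That count was 12, 5 and 5 larger and 2, 7 and 3 smaller with median-ratio factors, quantile normalization and the authors' normalized values. Of all genes 26.6%, 28.3% and 29.0% had a larger and 34.0%, 29.3% and 28.8% a smaller effect on these scalings. On FPKM the count of larger effects lay between 26 and 39 when single libraries were left out.

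Sham ventricles were not level over time for the mitosis genes. Compared with sham 1 week libraries, sham 1 day libraries had lower values of 5 members, all mitosis genes (Ccnb2, Ube2c, Mki67, Top2a and Prc1), and higher values of none, where 0.459% of all genes were lower and 0.957% higher. At an unadjusted p below 0.05, 29 members were lower and 0 higher. The share of all genes at that unadjusted p is not given here, so this count has no background to be read against. The ratio of sham 1 day to sham 1 week means was 0.261 in the median mitosis gene and 0.938 in the median S phase gene. Top2a had 0.20, 0.193 and 0.232 FPKM in sham 1 day libraries, against 1.86, 0.917 and 1.36 FPKM in sham 1 week libraries (log2 fold change -0.96 (SE 0.17, adjusted p = 0.00963)). Mki67 had 0.171, 0.251 and 0.288 FPKM in sham 1 day libraries, against 1.54, 0.854 and 1.14 FPKM in sham 1 week libraries (-0.80 (SE 0.17, adjusted p = 0.0255)). In both genes the 1 day libraries lay below all 1 week libraries. The count of called members was unstable: it was 0 without sham 1 week replicate 1, which was the highest library of its group for 35 members, 1 without sham 1 day replicate 1, 2 without sham 1 day replicate 2 or 3 or sham 1 week replicate 3, and 21 to 24 on the other scalings. Of all genes 2.05%, 1.46% and 1.51% were lower with median-ratio factors, quantile normalization and the authors' normalized values. Between sham 8 weeks and sham 1 week no member was called with limma, where 0.420% of all genes were higher and 0.428% lower. At an unadjusted p below 0.05, 15 members were lower and 0 higher, again without a share of all genes to set beside them. In sham 1 week libraries the fibroblast sums (351 to 458 FPKM) were also above those of sham 1 day (242 to 286 FPKM) and sham 8 weeks libraries (185 to 197 FPKM), and the part of this in the sham values was not tested.

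Genes of the same pathways outside the list were read from 4 further lists. Their counts stand against 39.7%, 72.8% and 70.4% of all genes called higher with MI and 30.6%, 16.5% and 10.6% lower at the 3 stages in order. These counts are on FPKM only, and those on the other scalings are not given here. Listed genes that met the minimum only through the MI 1 week libraries had to be high there. The number of such listed genes is not given here. Of 21 tested CDKs, cyclins, E2Fs and their partners, 13, 20 and 19 were higher with MI and 2, 0 and 0 lower at the 3 stages in order. Cdk4, the partner of cyclin D, had 33.8, 40.9 and 36.2 FPKM with MI, against 19, 18.9 and 20.5 FPKM with sham at 1 day. Later, Cdk4 had 77.3, 74.9 and 67.4 FPKM with MI, against 20.6, 17.8 and 20 FPKM with sham at 1 week, and 27.2, 34.6 and 44.7 FPKM with MI, against 15.2, 17.5 and 15.6 FPKM with sham at 8 weeks. Cks2, a small subunit of CDK complexes, had 5.23, 10.2 and 8.06 FPKM with MI, against 0.867, 0.978 and 1.15 FPKM with sham at 1 day and 20.7, 21.9 and 12.9 FPKM with MI, against 2.09, 1.65 and 1.68 FPKM with sham at 1 week. Cks2 was therefore well above sham at 1 day (log2 fold change 2.11 (SE 0.23, adjusted p = 5.83e-07)). At that stage Cdk2 was higher with MI (0.42 (SE 0.1, adjusted p = 0.00187)). Cdk1, at 0.122 to 0.206 FPKM with MI, was not called.

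Of 37 other DNA replication genes, 12 were higher and 12 lower at 1 day, 34 higher and 1 lower at 1 week, and 35 higher and 1 lower at 8 weeks, with median log2 fold changes of 0.03, 1.19 and 0.66. The one gene lower at every stage was Gmnn (geminin, which blocks the relicensing of origins), with 4.87, 3.68 and 5.22 FPKM with MI, against 30.9, 26.1 and 29.1 FPKM with sham at 1 day, 8.28, 9.85 and 11.6 FPKM with MI, against 25.2, 23.7 and 23.1 FPKM with sham at 1 week, and 15.1, 15.8 and 10.3 FPKM with MI, against 21.5, 26.1 and 24 FPKM with sham at 8 weeks. Its log2 fold changes were -2.42 (SE 0.15, adjusted p = 1.27e-09), -1.21 (SE 0.15, adjusted p = 1.27e-06) and -0.77 (SE 0.15, adjusted p = 0.000238). Of 46 other mitosis genes, 6, 44 and 42 were higher and 7, 1 and 0 lower at the 3 stages. Racgap1, the partner of Ect2 and Kif23 in cytokinesis, had 9.04, 10.3 and 7.24 FPKM with MI, against 1.07, 0.667 and 1.14 FPKM with sham at 1 week, and Pttg1 (securin, which holds separase inactive) had 19.2, 21.7 and 24.7 FPKM with MI, against 58.2, 60.8 and 64.5 FPKM with sham at 1 week. Pttg1 was lower at 1 day (-1.39 (SE 0.13, adjusted p = 1.2e-07)) and 1 week (-1.45 (SE 0.13, adjusted p = 3.98e-08)). At 1 day Gmnn and Pttg1 were among the 12 of 37 and 7 of 46 genes of their lists called lower, where 30.6% of all genes were. At 1 week each was the only gene of its list called lower.

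Of 18 inhibitors of the cycle and genes of quiescence, 7, 14 and 13 were higher and 4, 2 and 2 lower at the 3 stages, shares close to those of all genes. Cdkn1a (p21, an inhibitor of CDKs) had 108, 132 and 123 FPKM with MI, against 10.8, 10.8 and 11.9 FPKM with sham at 1 day, 32.5, 36.7 and 26.8 FPKM with MI, against 10.1, 5.87 and 14 FPKM with sham at 1 week, and 17.5, 19 and 31.7 FPKM with MI, against 27.9, 35.1 and 36.1 FPKM with sham at 8 weeks. It was higher at the first 2 stages (3.32 (SE 0.24, adjusted p = 6.52e-09) and 1.64 (SE 0.24, adjusted p = 7.39e-06)) and lower at 8 weeks (-0.56 (SE 0.24, adjusted p = 0.0419)), although the 8 weeks call was lost in 9 of 28 alternatives. Cdkn2b (p15, an inhibitor of Cdk4 and Cdk6) had 8.21, 9.18 and 7.3 FPKM with MI, against 0.252, 0.0919 and 0.18 FPKM with sham at 1 week, and 2.14, 3.32 and 6.28 FPKM with MI, against 0.0893, 0.368 and 0.272 FPKM with sham at 8 weeks. It was higher at 1 week (2.97 (SE 0.20, adjusted p = 2.47e-09)) and 8 weeks (1.90 (SE 0.20, adjusted p = 8.17e-07)). Cdkn1c (p57) had 1.59, 1.88 and 2.33 FPKM with MI, against 7.45, 8.19 and 9.62 FPKM with sham at 1 day, and 10.1, 13.3 and 14.6 FPKM with MI, against 5.28, 6.01 and 5.15 FPKM with sham at 8 weeks. It was lower at 1 day (-1.69 (SE 0.15, adjusted p = 5.88e-08)) and higher at 8 weeks (1.06 (SE 0.15, adjusted p = 1.12e-05)). Ccng1, a cyclin that p53 induces, was lower at all 3 stages, with log2 fold changes of -1.92, -1.76 and -0.91.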

How the data were processed

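mRNA from left ventricle was sequenced in 18 libraries (6 groups of 3, Illumina TruSeq RNA kit). The authors' processing notes name TopHat2 2.0.13, Bowtie2 2.2.3, Cufflinks 2.2.1 and the mm10 build, and the authors deposited 1 gene table with FPKM and log2 normalized values for each library. The log2 values that the authors deposited served only as an alternative scaling. The table also holds the authors' fold changes and p-values, which were not used, and 18 small RNA libraries were not used here. The table holds no raw counts: fragments per library were inferred from the step size of low FPKM values in genes with 1 transcript (28940000 to 39810000, median 34730000, with 80.57% to 88.1% of low values within 0.15 of a whole number), so depth is an estimate.

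FPKM were analysed as log2(FPKM + 1) with limma 3.58.1 (R 4.3.3) in 1 model of the 6 groups with a trended prior, over the 12858 genes that reached 1 FPKM in 3 or more of the 18 libraries, with 12 residual degrees of freedom and Benjamini-Hochberg adjustment over all of them. Ratios of mean FPKM carry no pseudocount. Figures and descriptions used Python 3.11.15, pandas 2.3.3 and matplotlib 3.10.9. The fit was tested on simulated data with known changes.

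The members and the lists were chosen with earlier results of these data known. Values in each library were given for at least 1 member of each role, the largest and smallest change of each part at each stage, each member called lower and each whose call or direction changed with the scaling, and up to 4 genes were named from each other list. One marker list is not reported here. Promoter windows came from RefSeq (GRCm38.p6), matched by symbol. Alternatives were another pseudocount, no filter, a stricter filter, 3 other scalings, a model without the trend, a fit of each stage alone, the replicate number as a block, leaving out each library, and, chosen after seeing the data, pseudocount 0.1 with median-ratio factors.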

Additional observations from a re-analysis of the deposited data

Results flagged for a closer look

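The MI effect on the cell cycle genes differed between stages by the interaction test of limma. Compared with 1 day, it was larger at 1 week in 44 members and smaller in 1, and it was larger at 8 weeks in 30 members and smaller in 0, where 51.8% of all genes had a larger and 11.9% a smaller effect. On the other scalings 12, 5 and 5 members had a larger and 2, 7 and 3 a smaller effect at 8 weeks than at 1 day (median-ratio factors, quantile normalization and the authors' normalized values). Of all genes 26.6%, 28.3% and 29.0% had a larger and 34.0%, 29.3% and 28.8% a smaller effect on these. Compared with 1 week, it was larger at 8 weeks in 1 member and smaller in 41. Ccnd1 (cyclin D1) was the exception both times, with a difference in log2 fold change of -0.78 from 1 day to 1 week and 0.85 from 1 week to 8 weeks. Both the 44 and the 41 include the 22 mitosis genes that met the minimum only through the MI 1 week libraries. Those genes had to be high there. Tk1 (thymidine kinase 1) differed by 2.92 from 1 day to 1 week, by -1.42 from 1 week to 8 weeks and by 1.5 from 1 day to 8 weeks. Cenpf differed by 1.38 from 1 day to 1 week and by -0.99 from 1 week to 8 weeks. With 3 libraries in a group, single libraries were not screened for distance from their group.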

How the results depend on the processing

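Between MI and sham at 1 week the count of members called higher stayed between 43 and 45 under every alternative except the stricter filter (a mean of at least 5 FPKM), which left 3 members to test. With that filter 3 members were higher and 0 lower at 1 day, 2 higher at 1 week, 3 higher and 0 lower at 8 weeks, 1 had a larger MI effect at 1 week than at 1 day, 1 a smaller effect at 8 weeks than at 1 week, 0 a larger effect at 8 weeks than at 1 day, and 0 were lower in sham 1 day than in sham 1 week libraries, because fewer genes were tested. On quantile-normalized values 2 members were lower at 1 week, 10 were higher and 7 lower at 8 weeks, 5 had a larger and 7 a smaller MI effect at 8 weeks than at 1 day, and 21 were lower in sham 1 day than in sham 1 week libraries. On the authors' normalized values these counts were 2, 11 and 2, 5 and 3, and 21. After scaling by median-ratio factors 1 member was lower at 1 week, 2 had a smaller MI effect at 1 week than at 1 day, 12 had a larger and 2 a smaller effect at 8 weeks than at 1 day, and 24 and 3 were lower in sham 1 day and sham 8 weeks than in sham 1 week libraries. With pseudocount 0.1, 14 members were higher at 1 day and 23 lower in sham 1 day than in sham 1 week libraries. With pseudocount 0.1 and median-ratio factors together, which was chosen after seeing the data, 14 were higher and 4 lower at 1 day, 1 was lower at 1 week, 2 had a smaller effect at 1 week than at 1 day, 19 had a larger and 2 a smaller effect at 8 weeks than at 1 day, and 31 and 7 were lower in sham 1 day and sham 8 weeks than in sham 1 week libraries. With each stage fitted alone 16 members were higher and 4 lower at 1 day. Of the genes called between MI and sham, 56.5%, 81.5% and 86.9% were higher at the 3 stages on FPKM, against 44.6% to 51.7%, 50.1% to 51.3% and 41.8% to 47.6% on the other scalings. The cause of these differences was not tested.

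Of the 46 members, 9 changed direction at 1 day, 1 at 1 week and 21 at 8 weeks with quantile normalization, 4, 1 and 8 on the authors' normalized values and 1, 1 and 1 with median-ratio factors. Members that changed direction included the following. At 1 day Mcm4 (-0.08) and Mcm7 (-0.09) did so on quantile-normalized and on the authors' normalized values, and Ccnb1 did so without MI 1 day replicate 1 (range -0.01 to 0.11 over single libraries left out). At 1 week Cenpf had -0.42 with quantile normalization, -0.39 on the authors' values, -0.21 with median-ratio factors and -0.32 with those and pseudocount 0.1. At 8 weeks Ttk had -0.33 with quantile normalization and -0.11 on the authors' normalized values, Bub1 -0.15 and Ccnb1 -0.01 with quantile normalization, and Ccnd1 -0.04 with median-ratio factors and -0.05 with those and pseudocount 0.1. The difference in the MI effect on Pcna between 1 week and 1 day was -0.05 with quantile normalization and on the authors' values, -0.52 with median-ratio factors and -0.53 with those and pseudocount 0.1.

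When single libraries were left out, the count of members higher at 1 day lay between 5 and 9 (5 without MI 1 day replicate 3 or sham 1 day replicate 3), that at 1 week between 44 and 45 and that at 8 weeks between 41 and 45. The count of members lower in sham 1 day than in sham 1 week libraries lay between 0 and 15 and that for sham 8 weeks between 0 and 1, the upper values without MI 8 weeks replicate 1. It was 8 without MI 1 week replicate 3 and 11 without MI 8 weeks replicate 3. Libraries with the same replicate number did not deviate together (correlations of -0.092 to 0.29, over 0.1 in 2 of 9 pairs). With the replicate block the counts were 8 higher and 2 lower at 1 day, 45 higher at 1 week, and 43 higher and 1 lower at 8 weeks, and 4 in place of 5 members were lower in sham 1 day than in sham 1 week libraries. The median member with a single transcript model rested on 30 inferred fragments in MI and 24 in sham libraries at 1 day, and the part of depth in the few calls of mitosis genes was not tested.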
